A study of Homo sapiens with 18 samples.

Results

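The comparison between the malignant and the non-malignant end of the MCF10 breast series was made in the negative control cells, that is, in the 3 MCF10CA1h and the 3 MCF10A libraries that had not been edited in METTL3, 6 of the 18 libraries of the series. A gene was tested where its DESeq2-normalized read count averaged at least 10 over the 6 libraries, which kept 15424 of the 35933 genes with values. The series asked how loss of METTL3, the catalytic subunit of the m6A RNA methyltransferase, acts at different stages of breast cancer progression, and the unedited cells give the contrast of the lines without that edit. All libraries were bulk RNA-seq of cultured human cell lines.

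MCF10A is a spontaneously immortalized, oestrogen receptor-negative breast epithelial line with a basal-like character. MCF10CA1h descends from it through MCF10AT1, a derivative carrying mutated HRas, which was passed serially as xenografts in mice and gave a tumour-forming, metastatic line. Each control group was 1 line from the negative control arm of a transient CRISPR/Cas9 experiment, in which transfected cells were sorted and diluted to single cells, so the spread between replicates a, b and c does not contain differences between clones of a line, and a feature of the clone cannot be told apart from a feature of the line. The labels do not say that the replicates were separate cultures, so the p-values measure the spread between these libraries, which may be partly technical. Both lines were grown in DMEM/F12 with horse serum, insulin, hydrocortisone, cholera toxin and EGF.

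Breast epithelial cells hold to one another through cadherin, claudin and desmosome junctions and to the basement membrane through integrins and laminins. During epithelial-mesenchymal transition, a programme used in development and by carcinoma cells, E-cadherin and epithelial splicing and polarity genes are turned down while N-cadherin, vimentin and matrix genes are turned up, classically under ZEB, SNAI and TWIST factors. Oncogenic HRas signals through the MAPK cascade, and tumour cells commonly also show raised expression of the genes for DNA replication and mitosis.

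The summed normalized counts of the 6 libraries lay between 23235999 and 25381239. The MCF10A replicates differed among themselves more than the MCF10CA1h replicates did, with Spearman's rho across the tested genes of 0.953 to 0.984 within MCF10A and 0.987 to 0.991 within MCF10CA1h. An axis was computed from the genes called between these control groups, with the MCF10A mean at 0 and the MCF10CA1h mean at 1. On it MCF10A replicates a, b and c fell at 0.14, -0.02 and -0.12, and the MCF10CA1h replicates at 0.969 to 1.02. MCF10A replicate a was therefore nearest to the malignant line and replicate c farthest from it, and genes whose difference moved by over 1.5 times without either are given with both values where they are described below. All 10 breast epithelial markers were detected above the filter in both lines, and their summed level was 306356 to 439925 in MCF10A and 350243 to 381372 in MCF10CA1h. Of these markers 4 were called higher in MCF10CA1h and 5 lower. EPCAM was among the higher ones, at 418 to 965 in MCF10A and 1924 to 2506 in MCF10CA1h. Of the markers of other cell types, some were at or near 0, with PTPRC and CD3E of leukocytes at no more than 5.31, CDH5, VWF and CLDN5 of endothelium at no more than 5.96 and PGR at no more than 0.37 in any of the 6 libraries. Others were expressed, among them the fibroblast markers DCN (753 to 1745 in MCF10A and 825 to 1056 in MCF10CA1h) and COL1A1 (215 to 288 and 111 to 188), and the leukocyte markers CD68 (595 to 2006 and 225 to 293, called lower) and CD14 (106 to 270 and 608 to 671, called higher). The whole leukocyte list summed to 760 to 2115 in MCF10A and 864 to 960.1 in MCF10CA1h, the endothelial list to 60.6 to 239 and 104 to 144, and the adipocyte list to 553 to 758 and 707 to 803. The 4 markers of hormone-sensing luminal cells summed to 366 to 667 and 799 to 875, with ESR1, the oestrogen receptor, at no more than 26.6.

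METTL3 itself read 752, 686 and 459 in MCF10A and 1022, 1102 and 1280 in MCF10CA1h. Its log2 difference, here and throughout MCF10CA1h minus MCF10A of the mean log2(normalized count + 1), was 0.87 with an SE of 0.209 (limma with Benjamini-Hochberg adjustment over the 15424 genes, adjusted p = 0.00959). An exact two-sided permutation test over the 6 values gave p = 0.1, the smallest that 3 against 3 libraries allow.

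The lines differed at a large part of the transcriptome. At an adjusted p below 0.05, 8625 genes (55.9%) were called, 4236 higher (27.5%) and 4389 lower (28.5%) in MCF10CA1h, and the groups did not overlap at 9921 genes (64.3%). The median log2 difference over all tested genes was -0.06, and the median size among called genes was 1.24. With the spread estimated over all 18 libraries 7096 genes were called, 3606 higher and 3490 lower. Counts over gene groups are to be read against 27.5% and 28.5%. With a log2 difference of at least 1 in addition, 2546 genes (16.5%) were higher and 2945 (19.1%) lower.

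The largest falls included genes that were no longer detected in the malignant line. EMD, which encodes the inner nuclear membrane protein emerin, read 1533, 1065 and 1182 in MCF10A and 1.23, 0 and 0 in MCF10CA1h. TMEM30B, a subunit of the flippases that move phospholipids across membranes, read 332, 468 and 463 in MCF10A and was listed at 0 in all 3 MCF10CA1h libraries. Among genes of the epithelial state, RAB25, a small GTPase of epithelial membrane recycling, went from 2054, 1274 and 1010 to 3.85, 0 and 10.2 (log2 difference -8.51, SE 0.801, limma adjusted p = 0.000228). Without MCF10CA1h replicate b the difference of RAB25 was -7.55 and without replicate c -9.30. GRHL2, a grainyhead-like transcription factor that sustains epithelial genes, went from 457, 473 and 282 to 1.44, 2.13 and 0 (log2 difference -7.65, SE 0.492). MSLN, the surface protein mesothelin, went from 2385, 1839 and 1900 to 15.6, 20.1 and 18.7 (log2 difference -6.73, SE 0.204). In all of these the groups were far apart, and no MCF10CA1h library approached the lowest MCF10A value.

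The remaining large falls were 3 zinc finger genes on chromosome 19, a GABA transporter and an antisense RNA. ZNF558 read 355, 425 and 542 in MCF10A and 0, 0.45 and 0.45 in MCF10CA1h. ZNF160 went from 141, 153 and 159 to 0 in every MCF10CA1h library, and ZNF71 from 101, 132 and 145 to 0 likewise. SLC6A11, the GABA transporter, read 571, 609 and 418 against 0.83, 2.46 and 2.92. CHMP1B-AS1 read 146, 91.3 and 85.6 in MCF10A and was listed at 0 in MCF10CA1h, while CHMP1B on the opposite strand read 2159, 2390 and 2330 against 1104, 1057 and 1151, and although the libraries came from a stranded kit, whether the quantification used strand is not given in the sources used here.

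Of the genes that averaged under 1 in one line and reached at least 100 in every library of the other, 6 were near 0 in MCF10CA1h (EMD, TMEM30B, ZNF558, ZNF160, ZNF71 and C3orf14) and 10 were near 0 in MCF10A. In the MCF10AT1 controls, the intermediate line, 4 of the 6 read at least 100 in every library and none of the 10 did. RefSeq holds a promoter for 5 of the 6, and all 5 contain GGGCGG or its reverse complement, the letters of the GC box, against 68.9% of the 11088 tested genes with a promoter. Their median ratio of observed to expected CG pairs was 0.85, against 0.836 over the tested genes. The bases before the start of 3 of them, and of FOXI1 from the genes near 0 in MCF10A, are shown because they are the regulatory DNA of genes that were present in one line and absent in the other. Capitals mark GGGCGG on either strand. The positions are in GRCh38.p14, at chrX:154379045-154379272 on the plus strand for EMD, chr19:53103435-53103672 on the minus strand for ZNF160, chr19:56595052-56595299 on the plus strand for ZNF71 and chr5:170105647-170105896 on the plus strand for FOXI1.
EMD: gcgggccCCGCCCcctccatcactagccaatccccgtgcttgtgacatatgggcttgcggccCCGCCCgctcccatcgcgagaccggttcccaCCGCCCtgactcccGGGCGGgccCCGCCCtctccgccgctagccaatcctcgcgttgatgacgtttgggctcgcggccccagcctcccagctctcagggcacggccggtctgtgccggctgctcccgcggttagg
ZNF160: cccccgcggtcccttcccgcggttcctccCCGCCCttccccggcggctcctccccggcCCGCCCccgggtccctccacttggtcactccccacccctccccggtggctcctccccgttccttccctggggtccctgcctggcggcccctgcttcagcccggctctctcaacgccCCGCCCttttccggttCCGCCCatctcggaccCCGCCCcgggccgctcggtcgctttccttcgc
ZNF71: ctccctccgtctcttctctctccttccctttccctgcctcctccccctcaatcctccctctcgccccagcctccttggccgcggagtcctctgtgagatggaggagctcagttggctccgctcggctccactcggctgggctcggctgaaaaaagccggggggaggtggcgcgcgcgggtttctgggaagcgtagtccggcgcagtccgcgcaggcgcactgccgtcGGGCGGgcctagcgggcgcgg
FOXI1: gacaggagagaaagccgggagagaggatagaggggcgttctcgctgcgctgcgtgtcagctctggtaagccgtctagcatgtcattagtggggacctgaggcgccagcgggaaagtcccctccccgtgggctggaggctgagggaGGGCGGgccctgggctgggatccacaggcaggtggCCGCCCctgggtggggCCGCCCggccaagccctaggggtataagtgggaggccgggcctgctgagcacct
The stretch before EMD holds 25 CG pairs and 5 matches, and that before FOXI1 14 CG pairs and 3 matches. Of the 5 promoters held for the genes near 0 in MCF10A, only 1 (20%) contains the letters. Over the promoters of genes lower by a log2 difference of at least 4, the median CG ratio was 0.447 in 70 promoters, and over those higher by as much it was 0.765 in 136. The letters TGANTCA of the AP-1 site, read on both strands, were in 11.4% of the 70, 2.94% of the 136 and 4.96% of all tested promoters, and no share of these was tested.

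The largest rises were of genes nearly absent from MCF10A. NES, the intermediate filament protein nestin of progenitor cells, read 3.76, 0.82 and 0 in MCF10A and 1138, 1281 and 1113 in MCF10CA1h (log2 difference 9.16, SE 0.536, limma adjusted p = 5.95e-05). SPARC, a secreted collagen-binding glycoprotein, went from 13.8, 4.97 and 28.4 to 5841, 4354 and 5079 (log2 difference 8.52, SE 0.513). CCND2, a D-type cyclin, read 0.95, 0 and 0.94 against 596, 595 and 622. The adhesion molecule CDH19 read 0, 0 and 0.64 against 530, 453 and 362, and the teneurin TENM2 0.85, 0.87 and 0 against 227, 382 and 169. Without MCF10A replicate a the difference of NES was 9.77, and without replicate b that of SPARC was 7.92. In each of these 5 genes every MCF10CA1h library stood above 100 and every MCF10A library below 30.

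ACTL8, an actin-like gene otherwise known from testis, read 5.46, 2.38 and 1.01 in MCF10A and 1423, 1420 and 1447 in MCF10CA1h. The glutathione peroxidase GPX2 went from 5.74, 0 and 0 to 653, 645 and 579 (log2 difference 8.37, or 9.29 without MCF10A replicate a), and the fatty acid carrier FABP4 from 1.92, 1.13 and 3.86 to 659, 852 and 725. The forkhead factor FOXI1 read 0, 0 and 1.05 against 284, 187 and 293. HMGN2P5, a processed pseudogene, was listed at 0 in MCF10A and read 342, 369 and 384 in MCF10CA1h. Its parent HMGN2, a nucleosome-binding protein, read 2768, 1748 and 1964 against 11867, 10221 and 11512, and reads shared with the parent make the pseudogene's values uncertain.

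**Figure D1:**
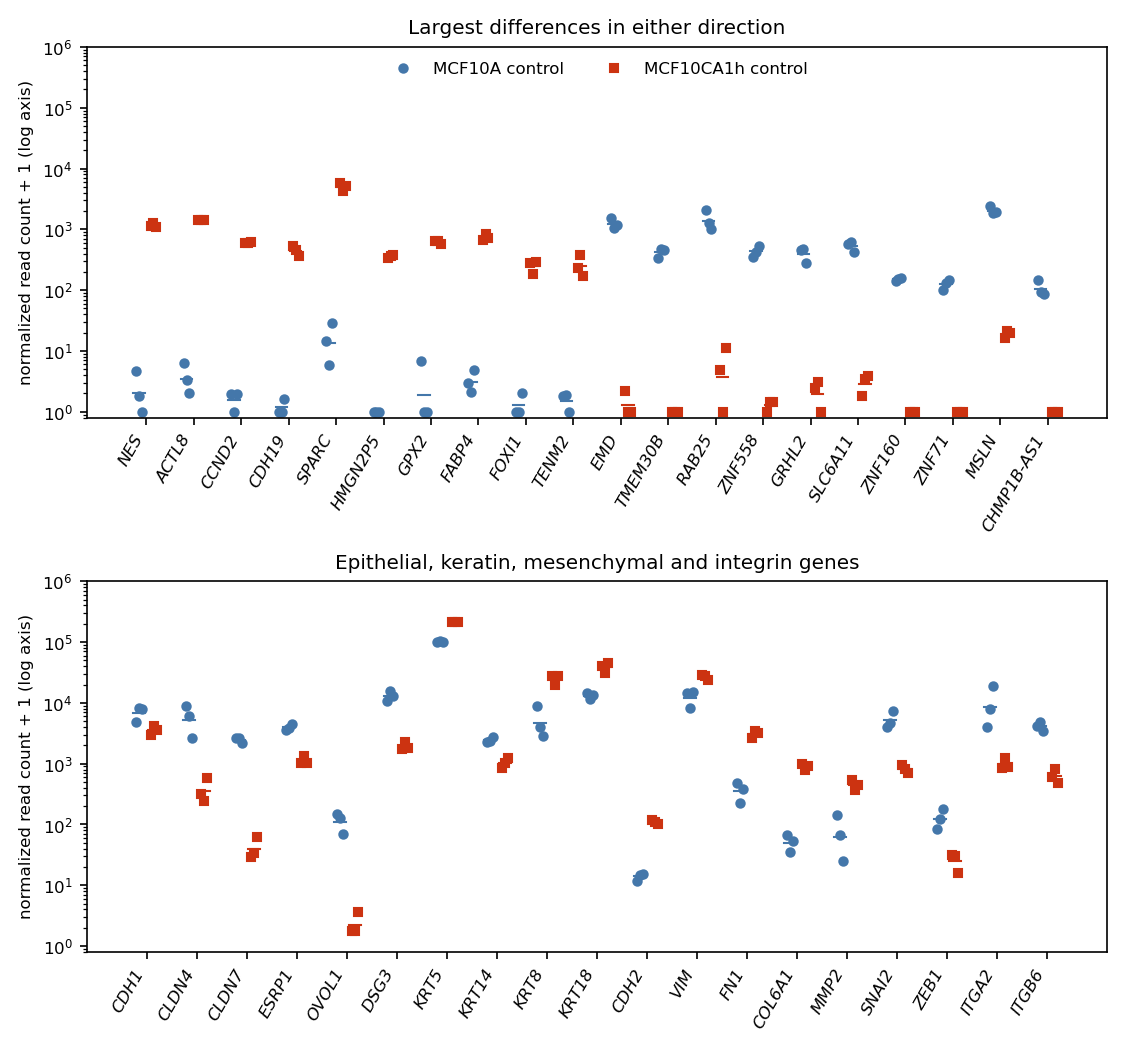
Normalized read count + 1 on a log axis for the genes with the largest differences (upper panel) and for epithelial, keratin, mesenchymal and integrin genes (lower panel), with 3 MCF10A control libraries as blue circles, 3 MCF10CA1h control libraries as red squares and the mean of the log values as a bar. In the upper panel the lines are apart by 2 or more decades at nearly every gene, while CDH1, VIM and KRT5 in the lower panel differ by far less.

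The genes by which the study followed epithelial-mesenchymal transition differed in the direction that the programme names, by very unequal amounts. CDH1, encoding E-cadherin, read 4836, 8321 and 7843 in MCF10A and 2974, 4148 and 3582 in MCF10CA1h, a log2 difference of -0.95 (SE 0.227, limma adjusted p = 0.00944). CDH2, encoding N-cadherin, read 10.9, 13.8 and 14.5 against 115, 107 and 99 (log2 difference 2.95, SE 0.28, adjusted p = 0.000232). The groups did not overlap at either gene, yet the level of CDH2 in MCF10CA1h stayed far under that of CDH1 in the same libraries, a comparison of counts that is not corrected for transcript length. VIM, vimentin, read 14346, 8203 and 14966 against 28825, 27287 and 23486 (log2 difference 1.13, SE 0.233), and MMP2, a collagen-degrading protease, 142, 67.2 and 24.2 against 540, 365 and 437 (log2 difference 2.82, SE 0.566). Without MCF10A replicate a the difference of MMP2 was 3.42 and without replicate c 2.16. The CDH1 call was lost when the spread was estimated over all 18 libraries, at an adjusted p of 0.117, with the same difference.

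Of 31 tested junction genes 4 were higher and 18 lower, with a median log2 difference of -0.81. The lower ones were spread over adherens junctions (4 of 7), tight junctions (8 of 15), gap junctions (4 of 6) and surface adhesion genes (2 of 3). The higher ones were in tight junctions (2 of 15), gap junctions (1 of 6) and surface adhesion genes (1 of 3). The examples given here are from the lower ones. CLDN7, a tight junction claudin, read 2597, 2597 and 2201 in MCF10A and 28.2, 33.3 and 61.6 in MCF10CA1h (log2 difference -5.95, SE 0.29). CLDN4 went from 8929, 6025 and 2610 to 317, 246 and 586 (log2 difference -3.86, SE 0.476). Both claudins fell much further than CDH1 did.

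The epithelial regulators followed, with 5 higher and 10 lower of 19 and a median of -1.09. Of the 11 transcription factors 2 were higher and 6 lower, and of the 2 splicing genes 1 was higher and 1 lower. Of the 6 surface protease and trafficking genes 2 were higher and 3 lower. The examples given here are all from the lower ones. Besides GRHL2, OVOL1, a zinc finger factor of epithelial differentiation, read 147, 127 and 69.9 against 0.77, 0.76 and 2.67 (log2 difference -5.61, SE 0.48). PRSS8, the epithelial surface protease prostasin, went from 2445, 1987 and 2183 to 22.8, 28.7 and 26.5 (log2 difference -6.35, SE 0.184). ESRP1, which directs epithelial splicing, read 3615, 3848 and 4454 against 1026, 1327 and 1009 (log2 difference -1.83, SE 0.153). GRHL2 and OVOL1 were thus at no more than 2.67 in MCF10CA1h, while ESRP1 stayed above 1000 in every library.

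The mesenchymal list did not move as a block, with 16 genes higher and 10 lower of 42 and a median of 0.36. Without MCF10CA1h replicate c the lower count was 6. The 8 fibroblast markers, some of which stand on this list too, summed to 1746 to 2175 in MCF10A and 1264 to 1619 in MCF10CA1h, with 2 of 6 tested markers higher and 1 lower. Both lines came from cells diluted to single cells, and whether any fibroblasts were present was not tested. LUM, the matrix proteoglycan lumican, was listed at 0 in MCF10A and read 52.3, 16.3 and 33.1 in MCF10CA1h. FN1, fibronectin, rose from 479, 227 and 386 to 2594, 3453 and 3219 (log2 difference 3.14, SE 0.273), COL6A1, a collagen VI chain, from 66.5, 34.5 and 51.8 to 981, 796 and 915 (log2 difference 4.16, SE 0.264), and THY1, a surface glycoprotein of mesenchymal cells, from 0.96, 0 and 36.5 to 199, 290 and 214 (log2 difference 5.79, SE 1.2). THY1 differed by 7.37 without MCF10A replicate c, its only MCF10A library above 1, and by 4.76 without replicate b. NT5E, the surface enzyme CD73, which is on the same list, fell from 10748, 16524 and 21499 to 1700, 2427 and 1561 (log2 difference -3.07, SE 0.271). Of the 5 tested transcription factors of the list none was called higher and 3 were called lower, and these are named here after their values were seen. SNAI2 read 3933, 4640 and 7459 in MCF10A and 949, 805 and 713 in MCF10CA1h (log2 difference -2.65, SE 0.241, limma adjusted p = 0.000201). ZEB1 went from 83.2, 121 and 180 to 30.9, 29.2 and 14.8 (log2 difference -2.31, SE 0.406). ZEB2 read 173, 184 and 177 against 132, 106 and 125 (log2 difference -0.56, adjusted p = 0.0418), a call lost in 9 of its alternatives, in which the adjusted p reached 0.551.

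Keratins shifted in composition. All 4 tested keratins of simple epithelia were higher, with a median of 1.71. KRT8 went from 8837, 4080 and 2867 to 27614, 19623 and 28141 (log2 difference 2.40, SE 0.379) and KRT18, its partner, from 14337, 11398 and 13242 to 39718, 30948 and 45259 (log2 difference 1.56, SE 0.167). Of the 12 basal and stress keratins 5 were higher and 5 lower. KRT5, the basal keratin that MCF10A is known for, was among the most abundant messages and rose from 101392, 103397 and 98452 to 213314, 214804 and 215309 (log2 difference 1.09, SE 0.111). KRT14, which pairs with KRT5 in basal cells, fell from 2278, 2322 and 2699 to 836, 1027 and 1247 (log2 difference -1.24, SE 0.171), and the stress keratin KRT6A from 129757, 221176 and 260305 to 48346, 57605 and 51301 (log2 difference -1.90, SE 0.249). KRT80, a keratin of differentiated epithelium, rose from 127, 69.4 and 62.8 to 1345, 1231 and 1628 (log2 difference 4.07, SE 0.283). The 5 lower keratins became 3 without MCF10CA1h replicate a or b.

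TP63, the basal lineage factor, read 1570, 2786 and 3396 against 973, 1298 and 853 (log2 difference -1.26, SE 0.294). Of 22 tested breast lineage genes 6 were higher and 10 lower, and of the 11 basal ones 2 were higher and 7 lower. NGFR, the low-affinity neurotrophin receptor, went the other way, from 38.2, 8.93 and 5.54 to 1262, 516 and 1313 (log2 difference 6.12, SE 0.676, or 6.88 without MCF10A replicate a). Of 27 cornified envelope genes 5 were higher and 10 lower, and without MCF10A replicate a the higher count was 9, without MCF10A replicate b or MCF10CA1h replicate c 3.

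Genes of cell-cell and cell-matrix anchorage were lower more often than higher. Of 21 desmosome and hemidesmosome genes 1 was higher and 16 lower (median -1.36), and of 19 integrins 3 were higher and 11 lower (median -1.48). The desmosomal cadherin DSG3 read 10709, 15590 and 12983 in MCF10A and 1767, 2289 and 1810 in MCF10CA1h (log2 difference -2.74, SE 0.172). COL17A1, the transmembrane collagen of hemidesmosomes, went from 46750, 57608 and 71280 to 11549, 10526 and 11780 (log2 difference -2.36, SE 0.164). The integrin pair of the hemidesmosome fell together, ITGA6 from 32282, 63560 and 64402 to 13041, 14479 and 9016 (log2 difference -2.09, SE 0.297) and ITGB4 from 84787, 63301 and 94501 to 21922, 19258 and 25676 (log2 difference -1.85, SE 0.182). ITGB6, an epithelial integrin that activates latent TGF-beta, read 4095, 4823 and 3464 against 602, 811 and 480 (log2 difference -2.73, SE 0.215).

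LAMA3 and LAMB3, chains of the laminin to which that integrin pair binds, were lower as well, with log2 differences of -2.76 (SE 0.366) and -2.58 (SE 0.309). The MCF10A replicates disagreed widely on LAMA3, which read 42684, 59282 and 130911 in replicates a, b and c, against 9561, 11665 and 9604 in MCF10CA1h. The collagen receptor subunit ITGA2 (3973, 7821 and 19266 against 858, 1243 and 889, log2 difference -3.10) had the same order among the MCF10A replicates. Without replicate c the log2 difference was -2.50 for ITGA2. At both genes even the lowest MCF10A library, replicate a, was above the highest MCF10CA1h library. Of 17 tested matrix proteases and inhibitors 4 were higher and 10 lower (median -0.93), with 4 of the 6 tested inhibitors among the lower ones.

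Genes of cell division were the most uniform group of the comparison. All 40 DNA replication genes and all 38 mitosis genes were called higher, against 27.5% of all genes, with median log2 differences of 2.57 and 4.08. MKI67, the proliferation marker Ki-67, read 1144, 228 and 40.2 in MCF10A and 11634, 11509 and 10434 in MCF10CA1h (log2 difference 5.66, SE 1.01, limma adjusted p = 0.00256). KIF20A, a kinesin of cytokinesis, read 257, 50 and 11 against 4681, 4700 and 4944 (log2 difference 6.46, SE 0.932), and UBE2C, the ubiquitin-conjugating enzyme of the anaphase-promoting complex, 374, 52.5 and 13.8 against 3895, 3534 and 3909 (log2 difference 5.82, SE 0.988). The MCF10CA1h replicates were nearly equal at these genes, whereas MCF10A replicate a was the highest and replicate c the lowest. Without replicate a the log2 differences were 6.85 for MKI67, 7.59 for KIF20A and 7.07 for UBE2C, and without replicate c they were 4.45, 5.38 and 4.74, with every call kept.

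Replication genes showed the same arrangement at smaller differences. TK1, the thymidine kinase of S phase, read 449, 111 and 13.4 in MCF10A against 2666, 2533 and 2664 (log2 difference 4.87, SE 1.05). CDC45, part of the replicative helicase, read 218, 82.2 and 14.1 against 1549, 1386 and 1548 (log2 difference 4.52, SE 0.829), and MCM10, which helps to activate that helicase, 88.2, 84.2 and 21.6 against 824, 1090 and 957 (log2 difference 4.10, SE 0.503). Without MCF10A replicate a the differences were 6.03 for TK1 and 5.40 for CDC45, and without replicate c 3.54 for TK1, 3.47 for CDC45 and 3.45 for MCM10. PCNA, the sliding clamp, varied least among the MCF10A replicates, at 1325, 1255 and 723 against 5529, 5355 and 4754 (log2 difference 2.29, SE 0.231).

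The summed level of the 38 mitosis genes was 25557, 11002 and 8846 in MCF10A replicates a, b and c and 115221 to 121954 in MCF10CA1h. That of the 23 integrin genes ran in the opposite order, at 186933, 224528 and 292349 in MCF10A and 68594 to 71791 in MCF10CA1h. The size of either difference therefore depends on which MCF10A library it is taken against, and the part of this spread in the line difference was not tested. With each library left out in turn, 36 to 38 mitosis genes and 39 or 40 replication genes were called higher. The counts come from bulk RNA, in which a larger share of dividing cells and more message per dividing cell cannot be told apart.

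**Figure D2:**
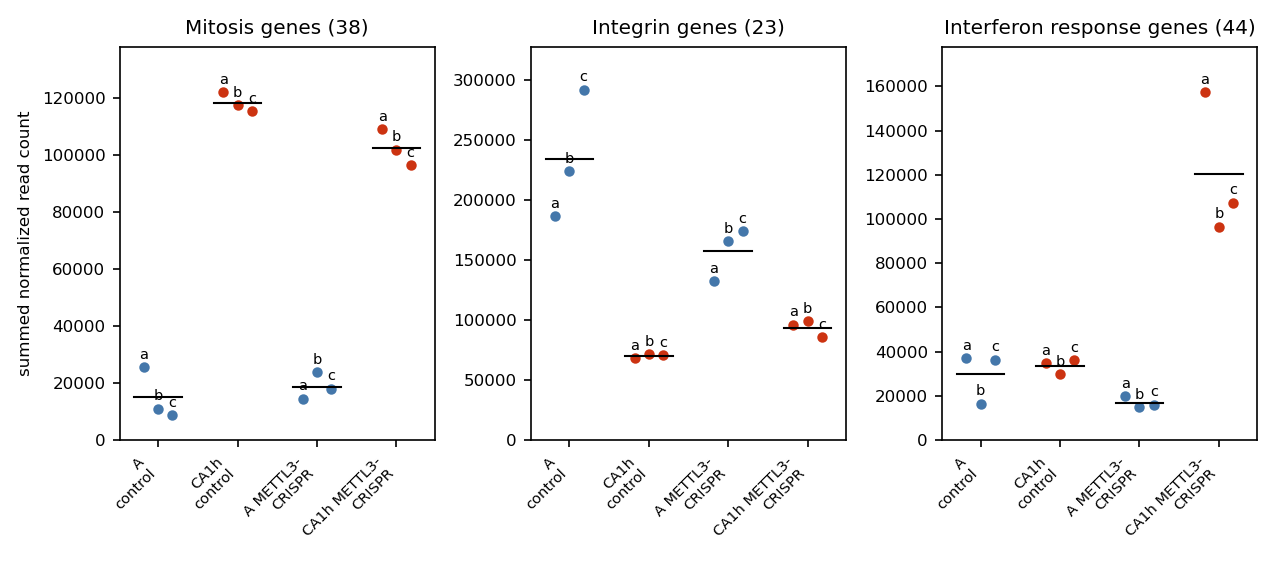
Summed normalized read count of the mitosis, integrin and interferon response genes in each library, lettered by replicate, for the control and the METTL3-CRISPR lines of MCF10A (A, blue) and MCF10CA1h (CA1h, red), with the group mean as a bar. Mitosis genes stand higher in MCF10CA1h in both kinds of clone, integrin genes are highest in MCF10A control replicate c, and interferon response genes are highest in MCF10CA1h METTL3-CRISPR.

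Of 21 tested genes that control entry into S phase 13 were higher and 2 lower (median 1.01). CDK2, a kinase of S phase entry, rose from 549, 357 and 282 to 2089, 1921 and 1727 (log2 difference 2.32, SE 0.242), the transcription factor E2F1 from 159, 139 and 28 to 1364, 1200 and 1362 (log2 difference 3.92, SE 0.591), and CDKN2C, an inhibitor of CDK4 and CDK6, from 62.2, 22.4 and 10.7 to 397, 297 and 382 (log2 difference 3.78, SE 0.557). E2F1 differed by 3.13 without MCF10A replicate c and CDKN2C by 4.43 without replicate a. CCND1, the D-type cyclin of most epithelia, read 3506, 5666 and 4372 against 3736, 4175 and 3771, with overlapping groups (log2 difference -0.19, adjusted p = 0.398). Without MCF10A replicate a the difference in CCND1 was -0.36, with an adjusted p of 0.0495.

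MDM2, a ubiquitin ligase, read 4140, 3636 and 3045 against 875, 988 and 1124 (log2 difference -1.85, SE 0.159). GADD45A, a gene induced by DNA damage, fell from 3494, 3305 and 2587 to 1082, 767 and 777 (log2 difference -1.84, SE 0.185). The groups were apart at both genes.

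Genes listed for RAS and MAPK signalling, where called, were lower more often than higher in the line that descends from cells with mutated HRas. HRAS read 10402, 10303 and 8778 in MCF10A and 12633, 9960 and 11764 in MCF10CA1h, with overlapping groups (log2 difference 0.22, SE 0.133, limma adjusted p = 0.197). The values count reads of the gene and do not separate the introduced from the native copies. Of the 37 tested, which include RAS genes and effectors, 2 were higher and 14 lower, with a median of -0.44. Only 43.2% were called, against 55.9% over all genes. Of the 9 feedback inhibitors 1 was higher and 6 lower, while of the 13 transcription factors 1 was higher, 2 lower and 10 not called. The median of the feedback inhibitors was -1.22, and -0.33 in the METTL3-CRISPR lines described below. SPRY2, which restrains receptor signalling to RAS, read 1114, 1759 and 3456 against 517, 588 and 627 (log2 difference -1.72, SE 0.366), and SPRED2, which acts on RAF activation, 1229, 1675 and 1753 against 553, 524 and 555 (log2 difference -1.49, SE 0.166). RRAS, a RAS relative, went from 2374, 1681 and 2656 to 584, 485 and 576 (log2 difference -2.01, SE 0.193). EGFR, the receptor for the EGF in the medium, read 6015, 10394 and 10108 against 3663, 5385 and 3160 (log2 difference -1.11, SE 0.267), and of the 14 genes of the EGF receptor family 3 were higher and 5 lower.

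The m6A genes showed no common direction, with 6 higher and 4 lower of 20 tested and a median of 0.00. METTL14, the partner of METTL3 in the methyltransferase, read 395, 556 and 479 against 300, 365 and 299 (log2 difference -0.56, SE 0.188, adjusted p = 0.0354), a call lost without MCF10A replicate b or c or MCF10CA1h replicate a or c, where the adjusted p was 0.0704 to 0.122, and also in the fit of all 18 libraries (0.287) and without the filter on low values (0.0588). WTAP, the adaptor of the complex, read 2010, 1620 and 1657 against 1661, 1438 and 1463 (adjusted p = 0.226). Of the erasers, ALKBH5 read 2622, 2264 and 2390 against 3252, 3248 and 3441 (log2 difference 0.45, SE 0.112, adjusted p = 0.0107), with an adjusted p of 0.0514 without MCF10CA1h replicate c. FTO read 653, 1102 and 1144 against 790, 963 and 759 (log2 difference -0.17, adjusted p = 0.56), and without MCF10A replicate a its difference was -0.43 with an adjusted p of 0.0304. Of the 9 tested writer genes 2 were higher, METTL3 among them, and METTL14 was the only one called lower.

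Interferon response genes, which cells turn on through STAT2 and IRF9 on exposure to interferon, split between the directions, with 8 higher and 17 lower of 42 tested. UBE2L6, the conjugating enzyme for ISG15, rose from 56.5, 9.08 and 43.3 to 952, 757 and 845 (log2 difference 4.85, SE 0.597). BST2, the antiviral tether, rose from 1077, 256 and 568 to 5768, 4041 and 5725 (log2 difference 3.24, SE 0.462), and OAS2, a sensor of double-stranded RNA, from 280, 55.2 and 186 to 1191, 1283 and 1025 (log2 difference 3.02, SE 0.527). Without MCF10A replicate b the differences were 4.07 for UBE2L6 and 2.34 for OAS2. IRF9 fell from 736, 368 and 1020 to 150, 119 and 165 (log2 difference -2.18, SE 0.361) and SAMD9, an antiviral effector, from 1037, 1429 and 2335 to 231, 238 and 281 (log2 difference -2.60, SE 0.284).

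Within MCF10A, replicate b was low for much of the list. IFI6 read 1678, 98.3 and 1640 in MCF10A and 120, 74 and 79.4 in MCF10CA1h (log2 difference -2.85, SE 1, adjusted p = 0.0421), and IFIT1 272, 58.5 and 360 against 64.3, 46.1 and 48.1 (log2 difference -1.76, SE 0.627, adjusted p = 0.0441). Without replicate b the differences were -4.20 for IFI6 and -2.56 for IFIT1. Both calls were lost without MCF10A replicate a or c or any MCF10CA1h replicate, at adjusted p of 0.0779 to 0.123, with IFI6 at -2.16 without replicate a and -2.18 without replicate c. With all libraries kept, both were also lost when limma was run without its intensity trend, at 0.0713 for IFI6 and 0.0675 for IFIT1. The IFIT1 call was lost as well after rescaling by median-of-ratios factors, at 0.0502. Without MCF10A replicate b the list had 26 lower genes, and without MCF10CA1h replicate a, b or c it had 10, 11 and 11. The higher count of 8 became 5 without MCF10CA1h replicate a and 4 without replicate c. The summed level of the list was 37167, 16560 and 36336 in MCF10A and 29928 to 36127 in MCF10CA1h.

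The upstream bases of BST2 and IFI6 are shown because these genes share the interferon response letters and yet were called in opposite directions. The IFI6 call is the one lost in the alternatives given above. Capitals mark GAAA, any 2 bases and GAAA again, the core of the element bound by the complex that holds STAT2 and IRF9, on either strand. RefSeq held a promoter for 33 genes of the list, and 63.6% of these contain the letters, against 2.9% of the tested genes and 3.65% of all 27195 promoters. The stretches are in GRCh38.p14 on the minus strand, at chr19:17405631-17405880 for BST2 and chr1:27672213-27672442 for IFI6.
BST2: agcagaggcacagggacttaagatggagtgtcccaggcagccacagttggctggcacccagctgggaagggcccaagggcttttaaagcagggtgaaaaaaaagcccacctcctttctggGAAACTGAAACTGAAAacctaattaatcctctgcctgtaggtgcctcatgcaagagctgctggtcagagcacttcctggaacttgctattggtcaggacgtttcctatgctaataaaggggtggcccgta
IFI6: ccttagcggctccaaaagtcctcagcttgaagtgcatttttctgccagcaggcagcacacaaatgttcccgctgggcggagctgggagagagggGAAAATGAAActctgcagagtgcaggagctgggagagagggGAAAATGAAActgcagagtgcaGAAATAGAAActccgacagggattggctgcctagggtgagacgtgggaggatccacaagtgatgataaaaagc
BST2 holds 2 overlapping matches and IFI6 holds 3.

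Neighbouring immune programmes leaned upward. Of 19 antigen presentation genes 11 were higher and 2 lower (median 0.89), and of 40 inflammatory genes 18 were higher and 7 lower (median 0.62). HLA genes are similar to one another, and their single values are left aside. CSF3, the granulocyte growth factor, rose from 5.84, 5.11 and 19.2 to 2140, 973 and 660 (log2 difference 6.88, SE 0.573) and ICAM1, the leukocyte adhesion receptor, from 4.57, 1.47 and 13.6 to 510, 445 and 357 (log2 difference 6.21, SE 0.598). ICAM1 differed by 5.59 without MCF10A replicate b and by 6.87 without replicate c. IL1RL1, the receptor for interleukin-33, fell from 136, 558 and 2249 to 12, 39.9 and 6 (log2 difference -5.17, SE 1.02). Its difference was -6.18 without MCF10A replicate a, -4.16 without replicate c and -5.87 without MCF10CA1h replicate b. IL1RL1 followed the order of LAMA3 and ITGA2 among the MCF10A replicates.

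Metabolic lists moved toward higher expression in MCF10CA1h. Of 32 sterol and fatty acid genes 21 were higher and 5 lower (median 0.78), and the lower count was 3 without MCF10CA1h replicate a. MVK, mevalonate kinase, read 778, 767 and 363 against 3030, 2563 and 2893 (log2 difference 2.23, SE 0.289), and FDPS, farnesyl diphosphate synthase, 4548, 3718 and 1892 against 9283, 8385 and 9528 (log2 difference 1.51, SE 0.295).

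Targets of NRF2, the factor that induces antioxidant and detoxifying enzymes, were higher at 15 of 23 and lower at 2, and with the 2 NRF2 pathway factors the list had 16 higher and 3 lower of 25. NQO1, a quinone reductase, rose from 1599, 1233 and 961 to 7938, 7935 and 7363 (log2 difference 2.64, SE 0.185), TXNRD1, thioredoxin reductase, from 907, 1272 and 1276 to 4121, 5521 and 3602 (log2 difference 1.93, SE 0.204), and FTL, the ferritin light chain, from 7535, 4472 and 7792 to 20288, 22538 and 20076 (log2 difference 1.71, SE 0.214). The groups did not overlap at any of the 3.

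Glycolysis and the hypoxia response parted. Of 22 glycolysis genes 13 were higher and 3 lower, and of 14 hypoxia response genes 1 was higher and 7 lower. NDRG1, a stress gene induced by low oxygen, fell from 18558, 27918 and 42205 to 2636, 2291 and 1500 (log2 difference -3.74, SE 0.318), and EGLN3, an oxygen-sensing hydroxylase that is itself induced by hypoxia, from 427, 127 and 120 to 24.9, 4.22 and 16.9 (log2 difference -3.81, SE 0.706). EGLN3 differed by -3.21 without MCF10A replicate a and by -3.13 without MCF10CA1h replicate b.

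Other signalling lists lay nearer to the background shares. Of 40 TGF-beta and BMP genes 9 were higher and 14 lower, the lower count being 9 without MCF10A replicate b or MCF10CA1h replicate c. Of 29 WNT genes 10 were higher and 6 lower, of 13 Notch genes 5 and 2, and of 10 IGF axis genes 3 and 3. Gene families did not all lie near the shares of 27.5% and 28.5%. Of 22 collagen chains 12 were higher and 8 lower, or 90.9% called against 55.9% of all genes. The lower count of collagen chains was 5 without MCF10A replicate b. Of 20 HOX genes 10 were higher and 1 lower, of 25 clustered protocadherins 1 and 8, of 14 S100 genes 1 and 7, of 21 replication-dependent histones 4 and 7, of 9 cadherins 2 and 3 and of 4 metallothioneins 2 and 2. Replication-dependent histone messages carry no poly(A) tail, and because the labels name polyA RNA while the kit described was for rRNA-depleted total RNA, the meaning of the histone values is uncertain. The 1 tested gene of the 28 in the cancer-testis family was not called, and ACTL8, the testis gene described above as a large rise, is not in that family. Of 13 mitochondrially encoded genes 1 was higher and 6 lower, or 3 without MCF10CA1h replicate a, and of 79 cytosolic ribosomal protein genes 23 were higher and 4 lower, a higher count that lay between 8 and 52 with libraries left out and was largest without MCF10A replicate a.

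**Figure D3:**
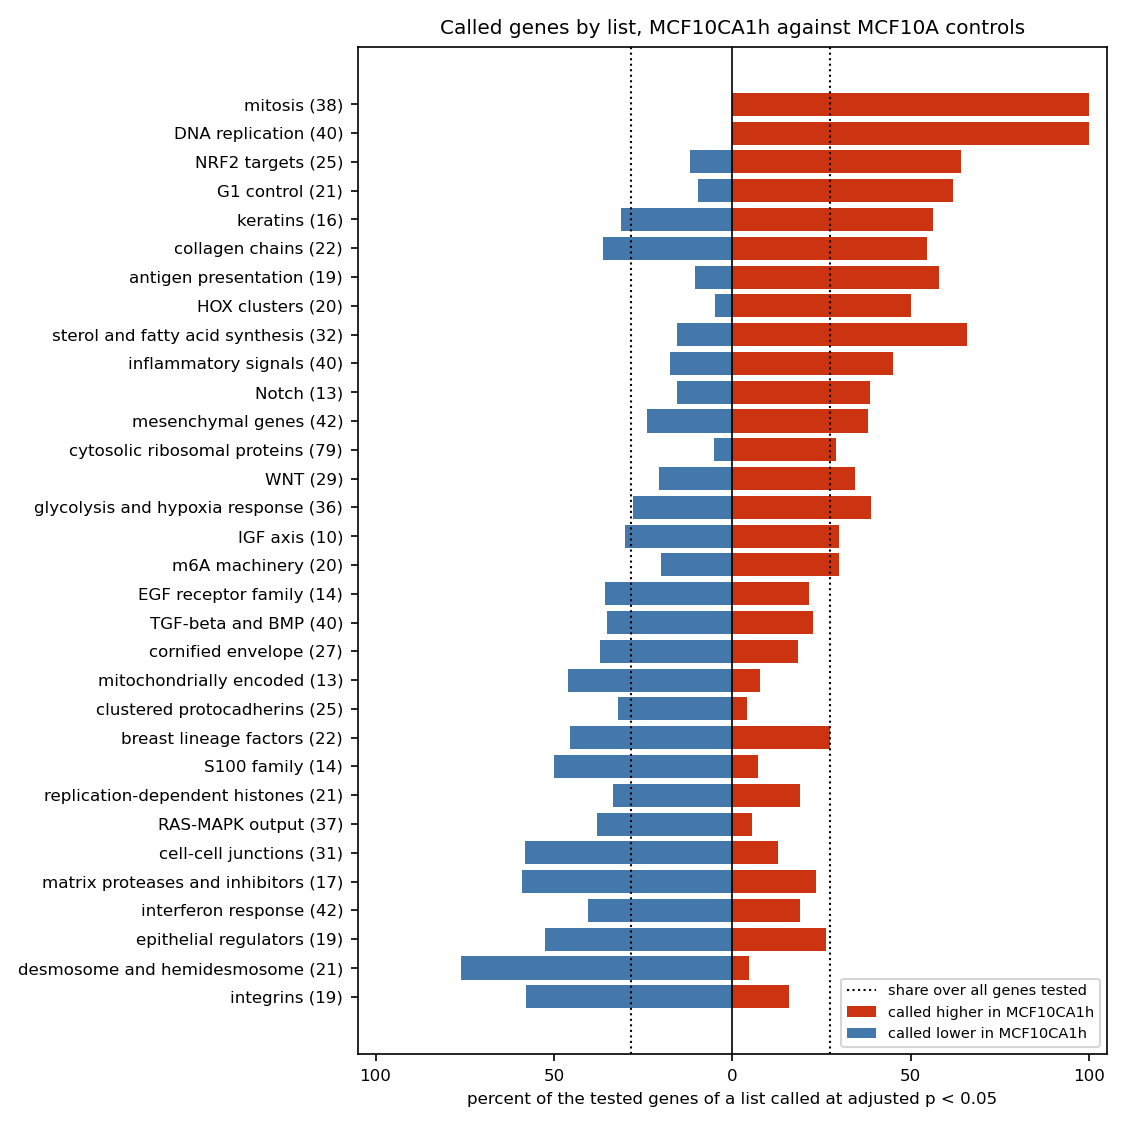
Percent of the tested genes of each list or family shown, each with at least 10 tested genes (number tested in brackets) that were called higher (red, to the right) or lower (blue, to the left) in MCF10CA1h control against MCF10A control libraries, ordered by the median log2 difference of the list, with dotted lines at 27.5% and 28.5%, the shares over all tested genes. Mitosis and DNA replication genes reach 100% higher, and desmosome and hemidesmosome genes have the largest lower share.

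The same lines were also present as clones labelled METTL3-CRISPR, which share no library with the controls and so give the line difference again, in other clones. METTL3 read 939, 981 and 510 in MCF10A and 825, 745 and 843 in MCF10CA1h of these clones. Against the controls of the same line this was a log2 difference of 0.33 in MCF10A (exact two-sided permutation test, p = 0.5) and -0.49 in MCF10CA1h (p = 0.1, the smallest possible), so the level of the message does not by itself mark the MCF10A clone as edited. The study reported reduced METTL3 protein by Western blot in its MCF10A knockdown lines, and a lesser relative decrease of the message by RT-PCR. Which knockdown line was sequenced was not stated. Of 15573 tested genes 9725 (62.4%) were called, 4855 higher and 4870 lower. Of the 8421 genes called in the controls and tested in both pairs, 6243 (74.1%) were called in the same direction in the METTL3-CRISPR lines, which was 66.2% of the calls there, and 272 were called in the opposite direction. Among those with a log2 difference of at least 1 in the controls, 4169 of 5287 (78.9%) were called in the same direction. Across the 15018 genes tested in both, Pearson's r between the log2 differences was 0.737 and Spearman's rho 0.745, as a description over genes that share libraries and are not independent.

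Some of the largest differences were of similar size in both pairs of clones, and examples of these come first. EMD averaged 1310 and 0.84 in the MCF10A and MCF10CA1h lines labelled METTL3-CRISPR, TMEM30B 395 and 0, ZNF160 146 and 0, CLDN7 1276 and 21.9, NES 0.82 and 1479, and CCND2 0 and 373. ACTL8, GPX2 and FABP4 had smaller log2 differences there, of 3.27, 5.45 and 4.99 in place of 8.66, 8.37 and 7.90. SPARC had a larger one, of 11.53 in place of 8.52. At CHMP1B-AS1 those lines overlapped, with MCF10A at 74.7, 0 and 193 and MCF10CA1h at 0. Of the 6 genes near 0 in MCF10CA1h controls and the 10 near 0 in MCF10A controls, 4 and 4 met the same limits again, and none of the 16 averaged 100 or more in the line where it had been near 0. Mitosis genes were called higher at 38 of 38, with a median of 2.69, and DNA replication genes in the same direction at 39 of 40, with a median of 1.67. The 12 desmosome genes had a median of -1.32, against -1.16 in the controls, and the tight junction genes -0.64 against -0.61. Other groups of anchorage genes were not kept at the same size. The integrin median was -0.45 against -1.48 in the controls, and the hemidesmosome median -0.78 against -1.68. Gap junction genes had a median of 0.60, against -0.97 in the controls.

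Other differences were not the same in both pairs of clones. A test of the interaction between line and clone type called 2217 of 15534 genes (14.3%), 815 with a more positive and 1402 with a more negative difference in the controls, and with every library scaled to an equal sum, which moved the median over all genes from 0.02 to 0.17, the split was 1120 and 1090. Among the 8625 control calls, 1427 (16.5%) were in this set. The interferon list was called opposite at 16 of its 25 control calls, and its median went from -0.95 in the controls to 3.04 in the METTL3-CRISPR lines. IFIT1 read 2.79, 7.53 and 8.52 in MCF10A METTL3-CRISPR and 5892, 2103 and 2751 in MCF10CA1h METTL3-CRISPR, a log2 difference of 8.91 against -1.76 in the controls (limma interaction, adjusted p = 3.72e-05). BST2 differed by 9.72 in those lines and by 3.24 in the controls. LAMA3 and LAMB3, lower in the controls, differed by 0.43 and 0.19 in those lines, and KRT14 differed by 2.67 in place of -1.24. MMP2 read 548, 337 and 312 in MCF10A METTL3-CRISPR and 352, 287 and 237 in MCF10CA1h METTL3-CRISPR, so its higher level in the malignant line (2.82) was not found in those clones (-0.42, interaction adjusted p = 0.00743). CDH4, a cadherin of the nervous system, read 402, 654 and 760 against 136, 228 and 215 in the controls (log2 difference -1.63, SE 0.3) but 1.78, 0 and 0 against 904, 938 and 792 in the METTL3-CRISPR lines (9.28).

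**Figure D4:**
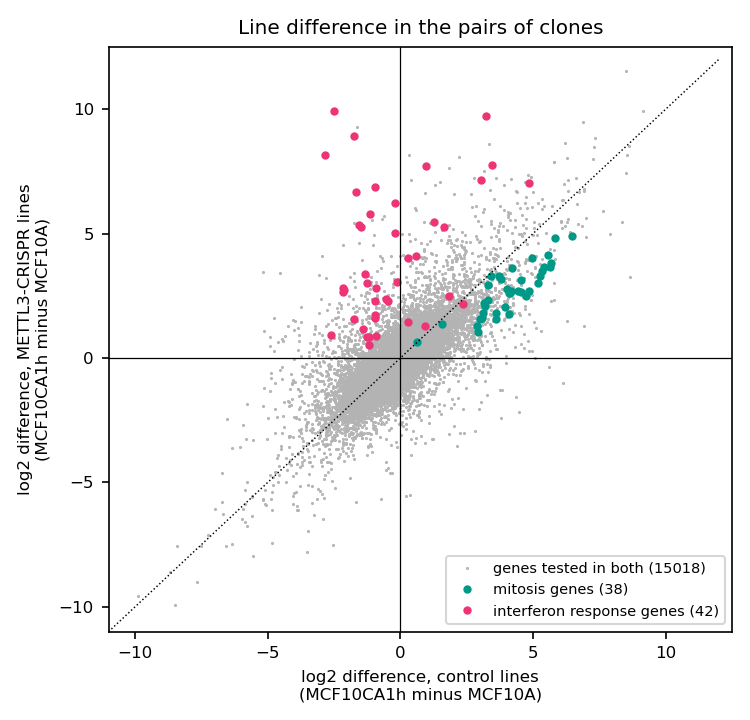
Log2 difference (MCF10CA1h minus MCF10A) of each gene in the control lines on the horizontal axis and in the METTL3-CRISPR lines on the vertical axis, with mitosis genes in green, interferon response genes in magenta and equal differences on the dotted diagonal. All 38 mitosis genes are in the upper right quadrant, and most interferon response genes lie far above the diagonal.

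The line difference also varied with position in the genome. Over the 1024 tested genes of chromosome 2 the median log2 difference was -0.73, with 122 genes higher (11.9%) and 552 lower (53.9%), against 27.5% and 28.5% over all genes. Chromosome 20 had a median of 0.55, with 198 of 401 genes higher and 64 lower, and chromosome 12 a median of 0.46, with 352 of 837 higher and 125 lower. Chromosomes 18 and 13 had medians of -0.51 and -0.44, and the other chromosomes lay between -0.28 and 0.25. In the METTL3-CRISPR lines the medians were -0.68 on chromosome 2, 0.76 on chromosome 20 and 0.58 on chromosome 12. Chromosome 9 went from -0.14 to -0.50 and chromosome 10 from -0.04 to -0.23 between the kinds of clone.

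In 294 blocks of neighbouring tested genes, 271 of them of 50 genes and the last of each chromosome of up to 98, the median ran from -1.15 to 1.01. The lowest block, chr2:61145068-70248615 in GRCh38, had 35 genes lower and 3 higher, among them ACTR2, of the complex that branches actin, at 5314, 8616 and 9450 against 3247, 3646 and 2857 (log2 difference -1.23, SE 0.222). Another low block, chr2:131723253-159771027, holds FMNL2, a formin of the actin cytoskeleton, at 5146, 7714 and 11019 against 625, 830 and 558 (log2 difference -3.52, SE 0.28). The highest block, chr12:14522-6614524, had 30 genes higher and 1 lower. It holds GAPDH, a glycolytic enzyme often used as a reference gene, at 171418, 107992 and 108524 against 293459, 233633 and 289035 (log2 difference 1.10, SE 0.21), the sodium channel subunit SCNN1A (log2 difference 1.43, SE 0.238) and the chaperone FKBP4 (log2 difference 1.42, SE 0.1). Across the 294 blocks the medians of the control and of the METTL3-CRISPR lines followed one another (Pearson's r 0.878, Spearman's rho 0.87), a description over blocks of genes measured in the same libraries.

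**Figure D5:**
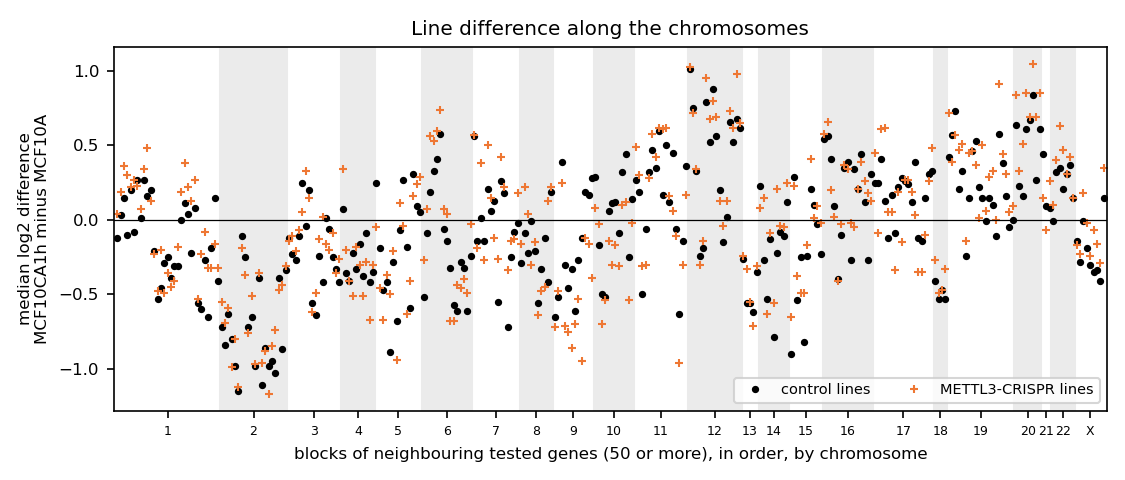
Median log2 difference (MCF10CA1h minus MCF10A) of each block of neighbouring tested genes (50 genes, more in the last block of a chromosome), in order along the chromosomes, for the control lines (black points) and the METTL3-CRISPR lines (orange crosses). Chromosome 2 lies below 0 along its whole length, and the ends of chromosome 12 and the whole of chromosome 20 lie above 0, in both pairs of lines.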

How the data were processed

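Bulk RNA-seq of 18 libraries of the MCF10 series was represented by 1 table of normalized signal per gene. Per the labels and the study's methods, the authors quantified reads against hg38 with kallisto 0.46.1, collected them per gene with tximport and deposited the counts after normalization with DESeq2 1.26.0 in R 4.1.1. The deposited values are therefore a signal scaled between libraries and not raw counts. Whole reads could not be recovered from them, and the depth behind each gene is unknown. The kit described was for stranded total RNA, while the labels name polyA RNA. Whether the quantification used strand is not given in the sources used here. Library sums after scaling were 23235999 to 25381239.

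From these values log2(normalized count + 1) was computed for genes averaging 10 or more over the libraries compared. Lines were compared with limma 3.58.1 in R 4.3.3 (lmFit, then eBayes with an intensity trend), with Benjamini-Hochberg adjustment over all genes tested and a threshold of 0.05. METTL3 and HRAS were also compared by exact two-sided permutation tests over libraries. The fit was tested on simulated data. A fold change on this scale understates the change of low genes. The METTL3-CRISPR lines were fitted in the same way, and the interaction of line and clone type in a fit of all 12 libraries. Summaries used Python 3.11.15 and pandas 2.3.3, and promoters, 250 bases before to 50 after each start, came from RefSeq (GRCh38.p14). The bases printed end where the annotated gene begins.

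The comparison, the 26 gene lists and 10 families were chosen with earlier results of these data known, so list counts are descriptions beside the shares over all genes. Genes named were METTL3, METTL14, WTAP, FTO, ALKBH5, HRAS, CDH1, CDH2, VIM and MMP2, the 10 largest rises and falls among called genes with a mean of at least 50, examples from up to 6 called members with the largest difference in each list, genes near 0 in one line, the most abundant genes of extreme blocks, cell type markers, and genes whose difference turned between the kinds of clone. SNAI2, ZEB1, ZEB2, CCND1, PCNA, HMGN2 and CHMP1B were added after their values were seen. Alternatives were other pseudocounts, filters, scalings, a fit of all 18 libraries, a fit with the replicate letter as a block, and each library left out in turn. Some genes and 1 gene list are not reported here. Columns of the MCF10AT1 METTL3-CRISPR line were used only in the fit of all libraries.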

Additional observations from a re-analysis of the deposited data

Results flagged for a closer look

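The line difference itself differed between the control and the METTL3-CRISPR clones at 2217 genes by the limma interaction test (adjusted p below 0.05). Of 101 genes named above, which leave out those named only as cell type markers, 32 were among them. Each value here is the log2 difference between the lines in the controls minus that in the METTL3-CRISPR clones.

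Interferon response genes were far more positive in the METTL3-CRISPR clones, with -11.02 for IFI6, -10.67 for IFIT1, -6.48 for BST2, -5.00 for IRF9, -4.16 for OAS2 and -3.51 for SAMD9. CDH4 stood at -10.91 and IL1RL1 at -8.63. Of the attachment genes named, 4 were in this set, at -3.19 for LAMA3, -2.77 for LAMB3, -1.35 for COL17A1 and -1.30 for ITGB4, while ITGA6, ITGB6 and DSG3 were not. Keratins differed at -3.91 for KRT14, -2.26 for KRT6A, -1.82 for KRT80 and 0.54 for KRT5.

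Matrix and surface genes stood at -3.03 for COL6A1, -3.00 for SPARC, -2.92 for NT5E, -2.86 for FN1 and -1.16 for VIM. PRSS8 had -2.73, RRAS -2.44 and NDRG1 -2.26. GADD45A had -1.05 and the eraser ALKBH5 -0.65. A larger or only positive difference in the controls was found for NGFR (7.11), ACTL8 (5.39), MMP2 (3.24), GPX2 (2.92), FABP4 (2.91) and NQO1 (0.85). With 1 line of each kind, the edit and the clone cannot be told apart.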

How the results depend on the processing

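The number of genes called between the control lines was 8625, and it lay between 6703 (without MCF10CA1h replicate a) and 9864 (without MCF10A replicate a) with each library left out in turn. In the METTL3-CRISPR lines it lay between 8448 and 9431, and the genes called in both pairs in the same direction between 5174 and 6731. In the fit of all 18 libraries the numbers were 7096, 7285 and 4561. A required log2 difference of at least 1 left 5491 genes in the controls, 5782 in the METTL3-CRISPR lines and 3376 in both, and a threshold of 0.01 left 4121 in both. The chromosome medians in the METTL3-CRISPR lines, -0.68, 0.58 and 0.76 for chromosomes 2, 12 and 20, stood against -0.73, 0.46 and 0.55 in the controls. With equal library sums the METTL3-CRISPR split was 4088 higher and 5652 lower, as the median of all genes went from -0.04 to -0.20.

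The replicate letters showed no evident pairing of the libraries. Deviations of same-lettered control libraries from their group means had correlations of 0.119, 0.184 and -0.142, and those of differently lettered ones ran from -0.321 to 0.228. Deviations within a group constrain one another, so these values cannot show that the letters carry no pairing. With the letter as a replicate block 8406 genes were called in the controls, 9075 in the METTL3-CRISPR lines, 5915 in both and 2135 in the interaction. Over 101 of the genes named and their alternatives, 1483 values kept direction and call, 30 lost the call, 2 gained it (FTO and CCND1) and 0 changed direction. Genes named only as cell type markers, among them EPCAM, CD68, CD14, DCN, COL1A1 and LUM, were not part of this tally. The calls lost were of METTL14, ALKBH5, CDH1, ZEB2, IFI6 and IFIT1. The cause was not tested. Genes with low values were limited by unknown depth, and p-values by 3 libraries of 1 line a group.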

Other observations

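Zinc finger genes were looked at together after ZNF558, ZNF160 and ZNF71 had been seen among the largest falls. Of 398 tested genes with a ZNF symbol 56 were higher and 123 lower, with a median log2 difference of -0.36, against -0.06 over all genes. Their lower share was near the 28.5% over all genes, while their higher share was below the 27.5%. On chromosome 19, where the KRAB zinc finger clusters lie, 16 of 177 were higher and 74 lower (median -0.59), while of the other 868 tested genes of that chromosome 373 were higher and 137 lower (median 0.41). In the METTL3-CRISPR lines the chromosome 19 medians were -0.54 and 0.54. Zinc finger genes are similar to one another in sequence, and the division of reads between them is uncertain.

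The MCF10AT1 control libraries, between the lines in the series, stood at 0.363 to 0.628 on the axis that placed the MCF10A mean at 0 and the MCF10CA1h mean at 1. The METTL3-CRISPR libraries of MCF10A stood at 0.134 to 0.197 and those of MCF10CA1h at 0.909 to 0.919 on the same axis. Because the axis used only genes called between the control groups, positions of other libraries between 0 and 1 are partly built in.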
